A study of Mus musculus with 9 samples.

Results

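SLAM receptors are a family of cell surface proteins of lymphocytes, and the adaptor SAP (encoded by Sh2d1a) and the SRC-family kinase FYN carry their signals. The set described here holds 9 genes: 7 receptor genes (Slamf1, Slamf6, Slamf7, Ly9, Cd84, Cd48 and Cd244a), Sh2d1a and Fyn. They were listed by name, matched by symbol to the gene identifiers of the deposited table, and all 9 were found among its 14004 genes and passed the filter on low values. The table reports RNA-seq of iNKT1 cells, the T-bet-expressing subset of invariant natural killer T (iNKT) cells, from thymus, liver and spleen, with 3 libraries per tissue. Every mouse was C57BL/6, untreated, and of the genotype Tbx21CreTg;Rosa26-LSL-YFP+/+, in which Cre under control of Tbx21 switches on YFP in cells that have expressed T-bet. Ages are not given in the sources used here, nor is the gate by which cells were sorted, and YFP marks past as well as present Tbx21 expression. Levels are normalised read counts as the authors deposited them, and each tissue is summarised by its mean ± SD over 3 libraries (SD, n = 3).

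iNKT cells are selected in the thymus by CD1d on other cortical thymocytes, and the cell pairs touch through SLAM receptors as well as through the T cell receptor. Most SLAM receptors bind their own kind on the facing cell. Phosphorylated tyrosine motifs in their tails bind the SH2 domain of SAP, which in turn recruits FYN. When SAP is absent the same motifs can bind phosphatases such as SHP-1. Loss of SAP or of FYN, or combined loss of SLAMF1 and SLAMF6 signals, blocks or reduces iNKT development in mice. The labels give no question for these genes. The comparison made is how their transcripts differ between iNKT1 cells of the thymus and iNKT1 cells of the periphery.

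The receptor genes form 1 cluster on mouse chromosome 1 (mm10, 171559193 to 171953170, 394 kb), with Fyn on chromosome 10 (39368855 to 39565381) and Sh2d1a on the X chromosome (42502453 to 42529330). The cluster order is Cd244a, Ly9, Slamf7, Cd48, Slamf1, Cd84 and Slamf6, with the predicted coding gene Gm10521 between Cd84 and Slamf6. The feature that links receptor to adaptor is the tyrosine-based switch motif, in which threonine, any residue, tyrosine, any 2 residues and valine or isoleucine follow each other. In the coding sequences of the GENCODE M21 transcripts, translated and searched after the last hydrophobic stretch, Cd244a had 4 such motifs, Slamf1, Slamf6, Ly9 and Cd84 had 2 each and Slamf7 had 1. Cd48, which encodes a lipid-anchored protein without a tail and is the ligand of CD244, had none there. The motifs of Slamf1 and Slamf6, which spread most in thymus on the log2 scale, and of Ly9 and Cd244a, which had tissues without overlap, are shown as coding DNA, 5′ to 3′, with the codons of the motif in capitals, and with the exon and the mm10 position of the motif.
Slamf1 motif 1, exon 5, chr1:171792339-171792356, plus strand: agccttACTATTTATGCCCAAGTAcagaaa
Slamf1 motif 2, exon 7, chr1:171799588-171799605, plus strand: cccaccACAGTTTATGCCAGTGTGacactg
Slamf6 motif 1, exon 6, chr1:171939437-171939454, plus strand: gggaacACTGTGTATGCACAAGTCactcgt
Slamf6 motif 2, exon 7, chr1:171941664-171941681, plus strand: tccatgACAATTTACTCCATAGTTaatcat
Ly9 motif 1, exon 8, chr1:171593912-171593929, minus strand: gcaatcACTCCATATGATAAAGTGgatggg
Ly9 motif 2, exon 9, chr1:171593438-171593455, minus strand: tcaaatACAATCTACTGCTCTGTGcagaag
Cd244a motif 1, exon 5, chr1:171577838-171577855, plus strand: cctttgACAATATATGAATATGTCaaggac
Cd244a motif 2, exon 6, chr1:171579144-171579161, plus strand: agaggcACCATGTACTCTATGATAcagtgc
Cd244a motif 3, exon 7, chr1:171580788-171580805, plus strand: aaatgtACAGTATATTCAGTAGTCcagcct
The tyrosine codon, TAT or TAC, is the third of the codons in capitals, and motif 4 of Cd244a is split between exons 8 and 9.

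The libraries differed in depth and in complexity. Recovered reads ran from 3880903 in liver replicate 3 to 39568081 in spleen replicate 3, and the libraries with the fewest genes at 1 read or more were thymus replicates 1 (10476) and 2 (11180). The remaining 7 had 11781 to 13038 such genes. All 10 markers fixed for iNKT1 cells, among them Cd3e, Zbtb16, Tbx21, Il2rb and Klrb1c, were at 777 or more in each library. The library numbered 2 in each tissue had Xist at 84543 or more, and thymus replicate 3 had it at 16531, against 125 or less elsewhere. The summed B cell list (5 of 6 markers in the table) was 4085 in spleen replicate 1 and at most 759 in the other 8. In the thymus libraries Ms4a1, Cd79a and Cd79b had no read, while Cd22 of the same list reached 303 in thymus replicate 2. The hepatocyte list (5 of 5) summed to between 1269 and 1790 in liver, mostly through Alb, and to at most 270 elsewhere.

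None of the 9 genes passed the threshold between tissues in the limma-trend fit, the main test. In this fit across 13309 genes, with Benjamini-Hochberg adjustment, 0 of 9 had an adjusted p under 0.05 in liver vs thymus, spleen vs thymus or liver vs spleen, against 0.323%, 0.398% and 0.015% of all genes tested. At an unadjusted p under 0.05 there were 3, 6 and 1 of the 9, where the same holds for 11.6%, 11.7% and 3.03% of all genes. The edgeR quasi-likelihood test on recovered reads also called 0 in each comparison (0.136%, 0.256% and 0.016% of all genes). Before adjustment it gave 2, 3 and 1 of the 9 (11%, 11.1% and 2.71% of all genes). DESeq2 called 0, 1 and 1 of the 8 it gave a p for, Cd244a being the call in both (4.17%, 4.66% and 0.225% of all genes). Its counts before adjustment were 2, 3 and 1 (15.2%, 15.1% and 4.6% of all genes). The F-test for any tissue called 0 of 9 in the limma-trend fit (0.346% of all genes). The median log2 fold change of the 9 was 0.34 in liver vs thymus and 0.34 in spleen vs thymus, beside 0.29 and 0.33 for all genes. In liver vs spleen it was -0.02 for both. The thymus comparisons share the thymus libraries, and in bulk RNA fewer cells with a transcript and less of it per cell cannot be told apart.

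**Figure D1:**
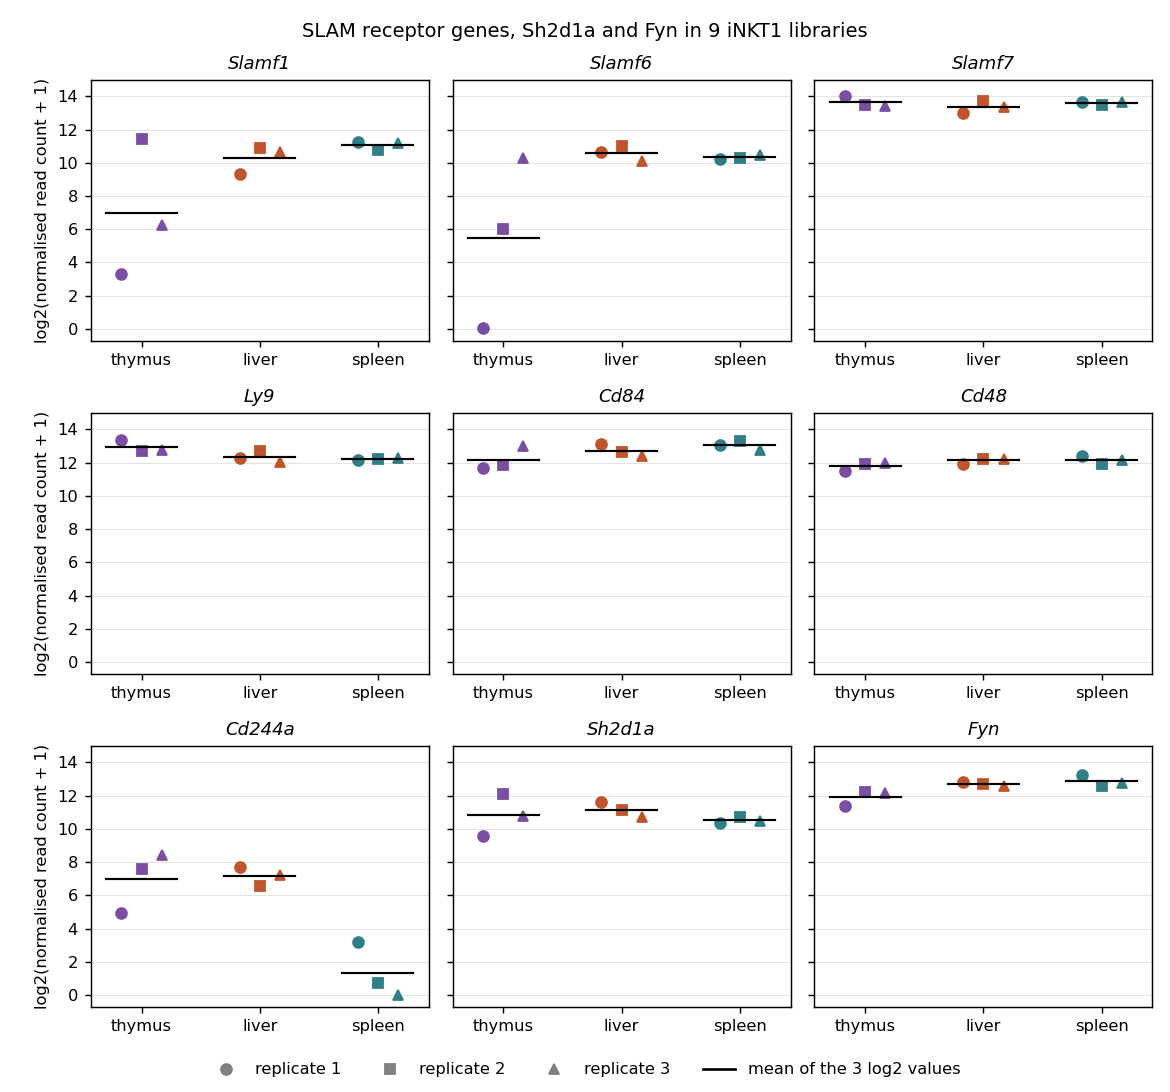
Level of each of the 9 genes in the 9 libraries, as log2(normalised read count + 1) on the y axis, by tissue on the x axis; symbols mark the replicate number and bars the mean of the 3 log2 values. Slamf1 and Slamf6 spread by 8.09 and 10.26 log2 units in thymus and by at most 1.58 in liver and spleen, Cd244a is lowest in spleen, and the other 6 genes stay between 9 and 14 throughout.

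Slamf6, which encodes the self-ligand receptor Ly108, had the widest log2 range of the set in the thymus. Thymus replicates 1, 2 and 3 had it at 0 reads, 64.8 and 1251. Liver replicates 1, 2 and 3 had 1619, 2061 and 1115, and spleen replicates 1, 2 and 3 had 1205, 1247 and 1433. Only thymus replicate 3 reached the level of the peripheral libraries, and the tissues overlapped because of it. The liver mean was 1599 ± 474, the spleen mean 1295 ± 121 and the thymus mean 439 ± 704, so the thymus SD exceeded its mean. The log2 fold change was 5.15 in liver vs thymus (95% interval 1.58 to 8.71, limma-trend adjusted p 0.262) and 4.88 in spleen vs thymus (1.31 to 8.45, limma-trend adjusted p 0.268). Without thymus replicate 3 these became 7.56 and 7.30, and both passed (limma-trend adjusted p 0.0244 and 0.0265), while without thymus replicates 1 and 2 they were 0.31 and 0.05, and without thymus replicate 1 alone 2.43 and 2.17. Models of the recovered reads gave smaller values for Slamf6, 1.87 and 1.57 with edgeR and 1.86 and 1.55 with DESeq2, and the ratios of the means were 3.64 and 2.95. Thymus replicate 3 was also the library with the most Rag1 (486, against no more than 1 read in each other library), an immature thymocyte gene. Of the other markers of that list (4 of 6 in the table), Dntt was at 11.3 and Cd8b1 at 28.9 there. Cd4, at 985, and the summed list, at 1512, were the lowest of all 9 libraries. Cd4 was also at 5468 to 10054 in the liver and spleen libraries, and it makes up most of the sum in each library. The part of immature thymocytes in the Slamf6 value was not tested.

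Slamf1 encodes CD150, the family's founding self-ligand receptor, and it was uneven in the thymus in another way. It was at 8.99, 2729 and 75.3 in thymus replicates 1, 2 and 3, at 628, 1883 and 1629 in liver replicates 1, 2 and 3, and at 2489, 1782 and 2386 in the spleen replicates. Thymus replicate 2 had the highest value of all 9 libraries and the other thymus libraries the lowest of all. Its log2 fold change was 3.29 in liver vs thymus (SE 1.36, limma-trend adjusted p 0.371) and 4.10 in spleen vs thymus (SE 1.36, limma-trend adjusted p 0.254). Leaving out thymus replicate 2 gave 5.50 and 6.31, and both then passed (limma-trend adjusted p 0.0125 and 0.00363). Leaving out thymus replicate 1 gave 1.45 and 2.27 (limma-trend adjusted p 0.574 and 0.363). On recovered reads Slamf1 had 0.59 and 1.28 with edgeR and 0.54 and 1.22 with DESeq2, and the ratios of the means were 1.47 and 2.37. In thymus replicate 2 Slamf1 was high and Slamf6 low, in thymus replicate 3 Slamf6 was high and Slamf1 low, and in thymus replicate 1 both were near 0.

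How unusual such a spread is can be read from the other genes. Of the 2394 genes with a mean of 1000 to 3000 over the liver and spleen libraries, 8 (0.334%), Slamf1 included, spread in thymus by at least the 8.09 log2 units of Slamf1. For the 10.26 log2 units of Slamf6 the count was 3 (0.125%), itself included, and the median of the 2394 genes was 1.54. In liver, Slamf1 spread by 1.58 and Slamf6 by 0.89, beside a median of 0.79, and in spleen by 0.48 and 0.25, beside 0.81. Both genes were picked for this after their values were seen, so the shares describe these libraries.

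Cd244a (2B4) is the receptor of CD48 known mainly from natural killer cells. It was the only member with spleen values all below those of thymus and liver, and neither difference passed in limma-trend. It was at 30.3, 192 and 346 in thymus replicates 1, 2 and 3, at 210, 93.5 and 152 in the liver replicates, and at 8.15, 0.631 and 0 in the spleen replicates, which rest on 11, 1 and 0 reads. All 6 thymus and liver values lay above the 3 spleen values. Of all genes tested, 6.03% had every thymus value above spleen and 5.97% had every liver value above spleen. By the means, liver (152 ± 58.1) was 51.8-fold above spleen (2.93 ± 4.53), a ratio that rests mostly on the 11 reads of spleen replicate 1. The log2 fold change was 5.88 in liver vs spleen (95% interval 2.20 to 9.56), with an unadjusted limma-trend p of 0.00389 and an adjusted p of 1, and 0.316% of all genes had a smaller p. Spleen vs thymus gave -5.70 (-9.38 to -2.02, limma-trend adjusted p 0.211), and liver vs thymus 0.18 (-3.50 to 3.86). With a pseudocount of 10 the spleen differences shrank to 3.63 against liver and -3.52 against thymus. DESeq2 on recovered reads called both spleen differences (adjusted p 0.0462 against liver and 0.00242 against thymus), and over 23 alternatives the adjusted p ran from 0.0462 to 1 and from 0.00242 to 0.54. CD48 itself is the partner of this receptor, and Cd48 transcripts were at 5398, 3827 and 4572 in the spleen replicates.

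Ly9 (CD229), whose loss in mice raises iNKT numbers, was the only receptor with thymus values all above those of both other tissues. It was at 10708, 6708 and 7003 in thymus replicates 1, 2 and 3, at 4980, 6638 and 4228 in the liver replicates, and at 4585, 4843 and 5024 in the spleen replicates. The thymus mean, 8140 ± 2229, was 1.54-fold that of liver and 1.69-fold that of spleen. The gap between the lowest thymus and the highest liver value, both replicate 2, was small. The log2 fold change was -0.62 in liver vs thymus (SE 0.29, limma-trend adjusted p 0.428) and -0.72 in spleen vs thymus (SE 0.29, limma-trend adjusted p 0.337). Its sign was the same in all 23 alternatives, from -0.92 to -0.40 in liver and from -0.85 to -0.51 in spleen. Thymus values lay above all values of the other tissue in 5.73% of all genes against liver and in 6.03% against spleen.

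Slamf7, which couples mainly to the SAP relative EAT-2, was well expressed throughout, at 8167 to 16349 in each library. Its means were 12893 ± 3014 in thymus, 10590 ± 2548 in liver and 12496 ± 871 in spleen, and no pair of tissues was separated. In spleen vs thymus the log2 fold change was -0.02, with a 95% interval of -0.54 to 0.50, and its sign turned in 6 of 23 alternatives, with scaling to equal totals among them (0.14). An antisense gene without a row in the deposited table overlaps 9.2% of the Slamf7 exon length. Whether reads there were counted for Slamf7 depends on how strand and overlaps were handled, which the sources used here do not state.

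Cd48, the lipid-anchored ligand, was even, with a highest library at most 1.42-fold above the lowest within a tissue. It was at 2907, 3875 and 4114 in thymus replicates 1, 2 and 3, at 3924, 4817 and 4761 in the liver replicates, and between 3827 and 5398 in spleen. The tissues overlapped, with log2 fold changes of 0.32 (95% interval -0.33 to 0.96) in liver vs thymus and 0.34 (-0.30 to 0.99) in spleen vs thymus, close to the median of all genes. Cd84, another self-ligand receptor, was at 3308 and 3684 in thymus replicates 1 and 2 but at 8200 in thymus replicate 3. The liver replicates had 8756, 6317 and 5360, and the spleen replicates 8429, 10212 and 6919. Cd84 lay below the peripheral values in thymus replicates 1 and 2 and among them in thymus replicate 3, so the tissues overlapped. Its log2 fold change was 0.86 in spleen vs thymus (SE 0.35, limma-trend adjusted p 0.345) and 0.52 in liver vs thymus (SE 0.35, limma-trend adjusted p 0.576). With thymus replicate 3 as the only thymus library the liver difference turned to -0.30.

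**Figure D2:**
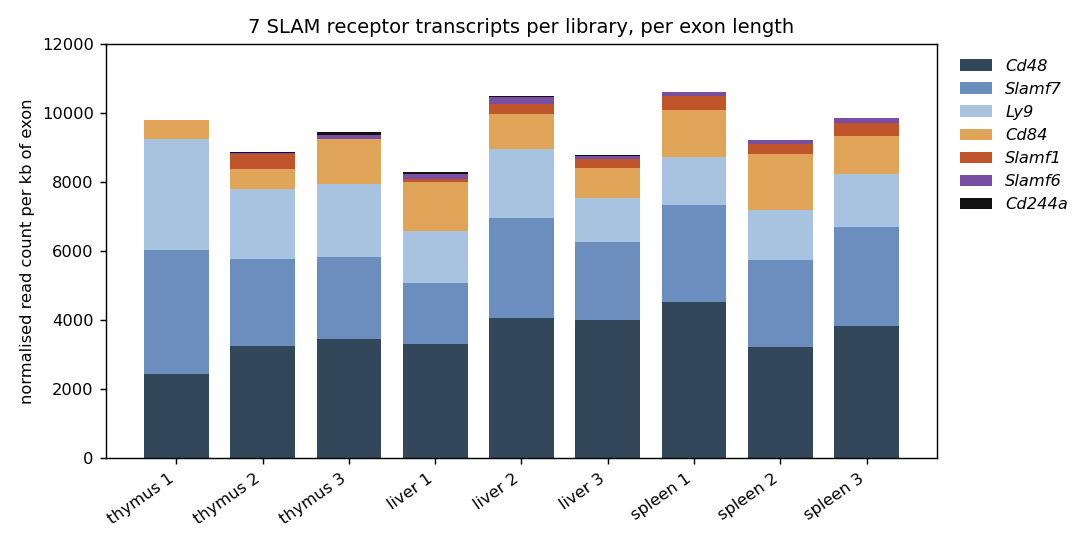
Normalised read count per kb of exon (y axis) of the 7 receptor genes, stacked, in each of the 9 libraries (x axis). Cd48, Slamf7 and Ly9 fill most of every bar, and the total changes little between tissues. The Slamf1 and Slamf6 segments are missing or thin in thymus replicate 1. Slamf6 is also thin in thymus replicate 2 (0.0674% of the bar) and Slamf1 in thymus replicate 3 (0.129%).

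To compare receptors with each other, counts were divided by the length of each gene's merged exons. Summed over the 7 receptors this gave 9372 ± 459.6 per kb in thymus, 9185 ± 1147 in liver and 9894 ± 684 in spleen, so the tissue means differed by less than the SD of the liver libraries. Of this total Cd48 made up 32.8% ± 6.75 in thymus, 41.3% ± 3.65 in liver and 38.9% ± 3.99 in spleen. Slamf7 followed with 29.9% ± 5.91, 25.0% ± 3.11 and 27.6% ± 1.34. Ly9 made up 26.1% ± 6.03 in thymus, 17.3% ± 2.44 in liver and 14.8% ± 1.49 in spleen, and Cd84 8.61% ± 4.57, 12.1% ± 4.15 and 13.8% ± 3.38. Slamf1 stayed at or under 4.99% and Slamf6 at or under 1.82% in each library. The Slamf6 figure is held down by its merged exon length of 10.83 kb, which counts exons of all its annotated transcripts, against 1.19 kb for Cd48.

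Sh2d1a, the adaptor gene, was present in every library and did not separate thymus from periphery. It was at 770, 4418 and 1736 in thymus replicates 1, 2 and 3, at 3116, 2246 and 1715 in the liver replicates, and at 1325, 1707 and 1420 in the spleen replicates. The thymus values span those of both other tissues. Liver (2359 ± 707) and spleen (1484 ± 199) did not overlap, though liver replicate 3 and spleen replicate 2 were nearly equal, and the log2 fold change of 0.63 (95% interval -0.53 to 1.80) had an unadjusted limma-trend p of 0.266 and an adjusted p of 1. Liver vs thymus gave 0.34 (-0.83 to 1.51, limma-trend adjusted p 0.846), and spleen vs thymus -0.29 (-1.46 to 0.88, limma-trend adjusted p 0.872). Liver vs thymus turned to -0.27 without thymus replicate 1, and spleen vs thymus to 0.35 without thymus replicate 2. The gene is X-linked, and thymus replicate 2, its highest library, had Xist at 96505. In spleen too Sh2d1a was highest in replicate 2 (Xist 107736). In liver it was lower in replicate 2 (2246, Xist 84543) than in replicate 1 (3116, Xist 63). With the libraries numbered 2 as a term, 0 of the 9 genes passed in any comparison, as in the main fit. That term does not follow Xist throughout, since thymus replicate 3 had Xist at 16531. Exons of Tenm1 on the other strand overlap 26.6% of the Sh2d1a exon length, and Tenm1 was at 876 in thymus replicate 1 and at most 51.5 elsewhere.

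Fyn, the kinase gene, was lower in each thymus library than in any peripheral one. It was at 2719, 4792 and 4497 in thymus replicates 1, 2 and 3, at 7325, 6630 and 6262 in the liver replicates, and at 9595, 6131 and 7033 in the spleen replicates. The 6 peripheral values all lay above the 3 thymus values, which in liver holds for 9.61% and in spleen for 9.29% of all genes in that direction. The liver mean was 1.68-fold and the spleen mean 1.90-fold that of thymus (4003 ± 1122). The log2 fold change was 0.79 in liver vs thymus (95% interval 0.15 to 1.43, unadjusted limma-trend p 0.0187, adjusted p 0.318) and 0.94 in spleen vs thymus (0.30 to 1.58, unadjusted p 0.00689, limma-trend adjusted p 0.239). The lower ends of these intervals, 0.15 and 0.30, lie below the medians of all genes, 0.29 and 0.33. Spleen replicate 1, the highest for Fyn, was also the highest for the B cell list (4085, against 65.9 and 203 in the other spleen libraries). The 6 listed myeloid markers summed to 4119 there, against 527 and 362 in the other spleen libraries. Without spleen replicate 1 the spleen difference was 0.76 (limma-trend adjusted p 0.536). The part of the B cell or myeloid markers in the Fyn value was not tested further. The sign was the same in all 23 alternatives, from 0.53 to 0.96 in liver and from 0.68 to 1.23 in spleen. Liver and spleen overlapped (-0.15, 95% interval -0.79 to 0.49).

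**Figure D3:**
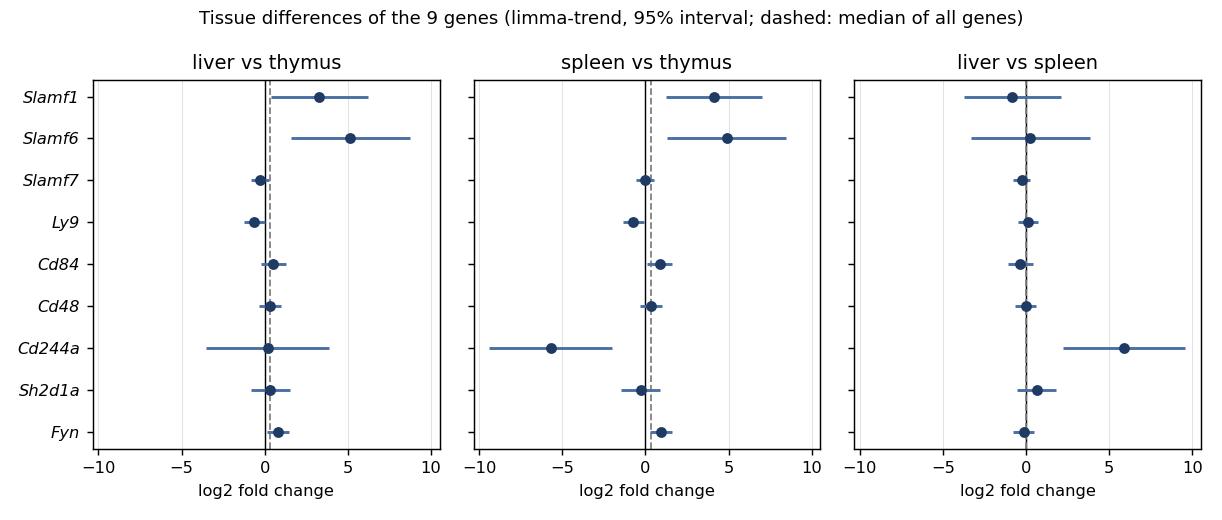
Log2 fold change (x axis) of each of the 9 genes (y axis) in the 3 comparisons, with 95% intervals from limma-trend; the dashed line is the median of all genes tested. The Slamf1, Slamf6 and Cd244a intervals span several log2 units, and those of Slamf7, Ly9, Cd84, Cd48 and Fyn are under 2 units wide.

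The order of tissues differed between members. Fyn, Cd84, Cd48 and Slamf1 ran from spleen through liver to thymus by their means, Slamf6 from liver through spleen to thymus, Ly9 and Cd244a from thymus through liver to spleen, Slamf7 from thymus through spleen to liver, and Sh2d1a from liver through thymus to spleen. Neighbours in these orders had no overlap only for thymus and liver in Ly9 and Fyn and for liver and spleen in Cd244a. Values did not overlap for 2 of 9 genes in liver vs thymus, 3 of 9 in spleen vs thymus and 2 of 9 in liver vs spleen, where 15.3%, 15.3% and 12.7% of all genes did not. In liver vs spleen both genes, Cd244a and Sh2d1a, had liver above, which 5.97% of all genes had, and none had spleen above, which 6.77% had.

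The genes nearest in pattern were those with the smallest root-mean-square difference from a member over the 9 libraries, in log2 values centred on each gene's mean, among 8761 named coding genes with a mean of at least 100. For Ly9 these were Pan3 (0.15), Cul4b (0.17) and the transcription factor gene Ikzf1 (0.18). For Fyn they were Edf1 (0.19), Tapbp and Osbpl9 (0.20 each), and for Cd48 Ywhab (0.13), Rfwd3 (0.14) and Itgb1 (0.17). For Slamf6 the nearest, Tufm, differed by 0.79 and had no read in thymus replicate 1, and for Slamf1 it was Ndc80 at 0.77. Gzmb, which encodes granzyme B, was among the nearest of Cd244a at 1.72, after Rnf216 (1.37) and Nek6 (1.52). The distances for Slamf1, Slamf6 and Cd244a are larger than those for Ly9, Fyn and Cd48. The measure is not scaled to a gene's own spread, which is wide in Slamf1, Slamf6 and Cd244a. Distances of different members therefore do not rank how close the likenesses are.

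Around the receptors, 28 further genes of the pathway had been listed, and 24 could be tested. Slamf8, Slamf9 and the SAP relatives Sh2d1b1 and Sh2d1b2 were not analysed here. In the limma-trend fit, 0 of the 24 rose and 1 fell in each of liver vs thymus and spleen vs thymus. In liver vs spleen 0 passed. Of all genes tested, 0.323%, 0.398% and 0.015% passed in liver vs thymus, spleen vs thymus and liver vs spleen. The lists were chosen with earlier results of these data known. The gene that fell was Ptpn6 in both thymus comparisons. It encodes SHP-1, a phosphatase that can bind SLAM receptor tails. Ptpn6 was at 16256, 12080 and 10409 in thymus replicates 1, 2 and 3, at 4229, 3444 and 3829 in the liver replicates, and at 3417, 1692 and 2319 in the spleen replicates. Each thymus value was more than that of any peripheral library. Its log2 fold change was -1.73 in liver (SE 0.32, limma-trend adjusted p 0.0292) and -2.42 in spleen (SE 0.32, limma-trend adjusted p 0.00331). The spleen call held in 23 of 23 alternatives (adjusted p 7.52e-09 to 0.0455). The liver call held in 13 of 23 (adjusted p 0.000119 to 0.296), and among the fits that each left out 1 library it was lost without thymus replicate 1 or 2, any of the liver libraries or spleen replicate 3. Ptpn6 is also a gene of myeloid cells, and the myeloid list (6 of 6 markers) summed to 3202 to 7282 in thymus, 545 to 3258 in liver and 362 to 4119 in spleen. In thymus this was nearly all Fcer1g (3191 to 6967), with Cd68 at 279 or less, Itgam at 35.9 or less, Csf1r at 12.6 or less, Lyz2 at 3.82 or less and Adgre1 without a read. Fcer1g was at 189 to 1960 in liver and 237 to 1079 in spleen. The other markers of the list peaked in a peripheral library. In spleen replicate 1 Cd68 was at 1188, Itgam at 136, Csf1r at 1297 and Adgre1 at 405, and in liver replicate 3 Lyz2 was at 404. The part of myeloid cells in the Ptpn6 value was not tested. The other phosphatases of the list did not pass: Ptpn11 (SHP-2) had means of 1608 ± 568, 1809 ± 561 and 1981 ± 387 in thymus, liver and spleen, and Inpp5d (SHIP-1) 4366 ± 2403, 3299 ± 406 and 3170 ± 513.

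**Figure D4:**
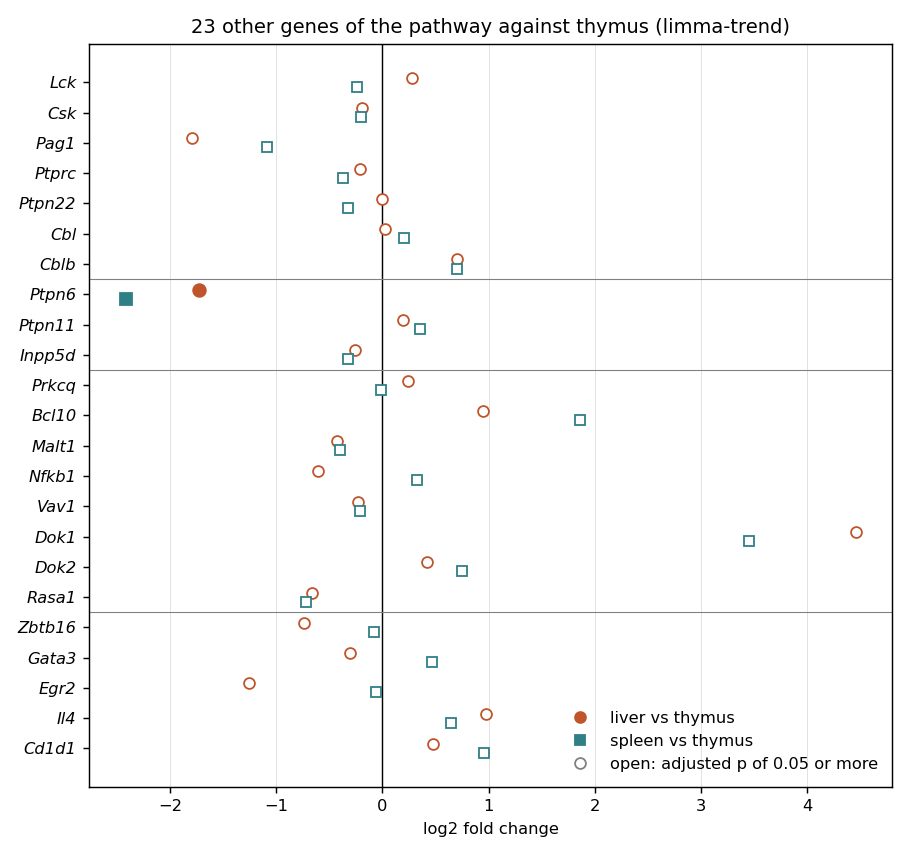
Log2 fold change against thymus (x axis) of 23 of the 24 further genes of the pathway (y axis), circles for liver and squares for spleen, filled where the adjusted p is under 0.05; horizontal lines separate the lists. Ptpn6 carries both filled symbols, at -1.73 and -2.42, and Pag1 is as low in liver, at -1.79, with an open symbol.

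Among the SRC-family kinase Lck and the regulators of such kinases, 0 of 7 passed in any comparison of the limma-trend fit. Pag1, an adaptor that holds the inhibitory kinase CSK near SRC-family kinases, was at 18077, 8876 and 6705 in thymus replicates 1, 2 and 3, at 2075, 4453 and 2793 in the liver replicates, and at 4103, 5821 and 4623 in the spleen replicates. No peripheral value reached the lowest thymus one, and the log2 fold change was -1.79 in liver vs thymus (SE 0.38, limma-trend adjusted p 0.0656) and -1.09 in spleen vs thymus (limma-trend adjusted p 0.28). The liver difference of Pag1 passed in 2 of 23 alternatives, with DESeq2 (-1.89, adjusted p 0.00215) and without thymus replicate 3 (-2.10, limma-trend adjusted p 0.0306). Cblb, a ubiquitin ligase that dampens T cell receptor signals, had means of 5198 ± 1142, 8355 ± 1233 and 8355 ± 1123 in thymus, liver and spleen (limma-trend adjusted p 0.317 and 0.316 against thymus), without overlap. Lck, the other SRC-family kinase of T cells, had means of 6711 ± 746 in thymus, 8259 ± 1710 in liver and 5662 ± 60.3 in spleen. Ptprc, whose phosphatase product CD45 activates these kinases, had 53937 ± 15056, 45625 ± 3413 and 40841 ± 1242.

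Of the 9 genes that act after SAP and FYN, 0 passed in any comparison of that fit. Prkcq, which encodes the PKC-theta recruited in SLAM signalling, had means of 5016 ± 692 for thymus, 5909 ± 683 for liver and 4979 ± 605 for spleen, with overlapping libraries. Of the genes that act after it towards NF-kB, Malt1 differed from thymus by -0.43 (liver) and -0.40 (spleen) on the log2 scale, and Bcl10 by 0.95 and 1.86 (limma-trend adjusted p from 0.358 to 0.665). Rasa1, a RAS regulator that binds the docking protein DOK1, was at 10381 ± 1327 in thymus against 6536 ± 525 in liver and 6283 ± 316 in spleen, with no overlap (limma-trend adjusted p 0.3 and 0.255). Dok1 itself had no read in thymus replicates 1 and 2 and at most 174 elsewhere. The lineage genes Zbtb16 (PLZF), Gata3, Egr2, Il4 and Cd1d1 likewise gave 0 of 5. Egr2, induced by receptor signals in iNKT precursors, was at 563, 1494 and 567 in thymus replicates 1, 2 and 3, at 398, 404 and 213 in the liver replicates, and at 822, 1386 and 370 in the spleen replicates. Liver lay below thymus in each library (log2 fold change -1.26, 95% interval -2.81 to 0.29, limma-trend adjusted p 0.514). Over the 24 genes the median log2 fold change was -0.20 in liver vs thymus and -0.07 in spleen vs thymus, beside 0.29 and 0.33 for all genes.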

How the data were processed

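The authors deposited 1 table of 9 columns. Per the submitters' processing notes it was made with Trimmomatic 0.33, TopHat2 2.1.0, HTSeq 0.6.1 and edgeR on mm10; their roles and the scaling are not given in the sources used here. The deposited values are a signal, normalised read counts that are not whole numbers, and total 22363922 to 32037024 per library. The column of thymus replicate 2 is named with a different prefix, whose meaning the labels leave unstated. Low values fall on evenly spaced rungs, and reads were recovered from an offset and a step for each library; of 15737 low values 93.0% came within 0.1 reads of an integer (70.7% in liver replicate 3, 98.2% or more elsewhere). Symbols matched 13359 of 14004 identifiers.

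The main test was limma-trend (limma 3.58.1, R 4.3.3) on log2(value + 1) over genes at 1 or more in at least 3 libraries, all 9 libraries in 1 fit with a mean per tissue; p-values are two-sided, adjusted by Benjamini-Hochberg, and 0.05 was the threshold. These fold changes compare means of log values, so a library near 0 moves them more than it moves a ratio of means. Alternatives included edgeR 4.0.16 and DESeq2 1.42.0 on recovered reads. The fits were run on simulated counts with the same spread for every gene and with changes planted in liver. That setting does not model single libraries that drop to near 0, as for Slamf1 and Slamf6 here. Exon lengths, positions and coding sequences came from GENCODE M21. The text names the 9 genes, the listed pathway genes and the 3 nearest genes in pattern. In all, 1 listed pathway gene and 1 listed marker are not reported here by name. Members and lists were chosen with earlier results of these data known. Libraries were made from total RNA with a low-input NuGEN kit, per the labels. Replicates are independent per the series design, with no animal named. Read-based values were recovered from the deposited values and do not carry counting error alone. No molecular identifiers are mentioned, so copies of a molecule cannot be told apart.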

Additional observations from a re-analysis of the deposited data

How the results depend on the processing

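Of the 23 alternatives, 1 was chosen after seeing the data (without thymus replicates 1 and 2); the F-test had 22. The count of the 9 genes called was 0 except as follows. It was 1 in spleen vs thymus and in liver vs spleen with DESeq2, 1 in the F-test with array weights (Cd244a), and 1 in liver vs thymus, spleen vs thymus and the F-test without thymus replicates 1 and 2 (Slamf1, at 4.03 and 4.85), where the 1 thymus library left is assumed to vary like the other tissues. In the fits without 1 library it ran from 0 to 1 in both thymus comparisons and the F-test and stayed at 0 in liver vs spleen. DESeq2 gave Slamf1 no p. 
Signs turned where no call was made. In liver vs thymus Cd244a was -0.30 with edgeR, -0.32 with DESeq2, -0.51 with array weights, -1.26 without thymus replicates 1 and 2, and -0.84 to 0.90 in the fits without 1 library (-0.09 without liver replicate 1); Sh2d1a ran from -0.27 without thymus replicate 1 to 0.98 without thymus replicate 2, and Cd84 -0.30 without thymus replicates 1 and 2. In spleen vs thymus Slamf7 was 0.14 under both scalings to equal totals, 0.04 with array weights, -0.14 to 0.16 without 1 library (0.04 without spleen replicate 2) and 0.21 without thymus replicates 1 and 2, and Sh2d1a was 0.25 over libraries 1 and 3 and ran from -0.91 to 0.35 without 1 library. In liver vs spleen Cd48 was 0.09 with array weights, and ran from -0.15 to 0.10 without 1 library (0.07 without liver replicate 1); Ly9 was -0.06 over libraries 1 and 3 and -0.07 to 0.26 without 1 library; Fyn ran from -0.29 to 0.03 without 1 library. The cause was not tested.
Over all genes, 43, 53 and 2 were called; the alternatives gave 8 to 491, 9 to 539 and 0 to 28. Over libraries 1 and 3 there were 12, 19 and 0, and with only the 6 libraries compared 12, 16 and 6. Equal totals gave 22 higher and 16 lower genes in spleen vs thymus, against 25 and 28. The 24 pathway genes gave 0 to 2 calls in liver vs thymus, 1 to 2 in spleen vs thymus and 0 in liver vs spleen. The median fold change of all genes moved from 0.29 to -0.03 in liver vs thymus with edgeR and from 0.33 to 0 in spleen vs thymus. The replicate block called 0 of the 9 genes in each comparison and the F-test, and 42, 55 and 4 genes over the table. Correlations of same-numbered libraries were -0.001 to 0.089, and those of differently numbered libraries -0.087 to 0.048. Every same-numbered pair lay above 0 except thymus replicate 2 with spleen replicate 2, and differently numbered pairs lay on both sides of 0. All were small and no animal is named, so the numbers were not taken as pairs in the main fit. Whether libraries of the same number share a source was not tested. In each tissue the library numbered 2 did have the highest Xist. Liver replicate 3, with 3880903 reads, limits low genes such as Cd244a (25 reads there).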
